A study of Mus musculus with 4 samples.

Results

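The intercalated cells of the mouse kidney were described here from 1 column of a table of cluster averages, the column the depositors named IC-A/IC-B, which was set against the other 16 clusters and first against their PC (principal cell) and CNT (connecting tubule) columns. The column held 16823 genes with at least 1 unique molecular identifier (UMI, a tag that counts each captured RNA molecule once), of 24468 genes listed. The study profiled nuclei from the kidney cortex together with the outer medulla of male C57BL/6 mice by droplet 3′ RNA sequencing, in 2 groups of 2 samples each. The Cis9w group received 4 weekly injections of 8 mg/kg cisplatin, a platinum drug that injures the tubule, and was collected in week 9, counted from the first injection. The CT9w group was untreated and collected in week 9. No engineered allele or transgene is named for either group. Each cluster average pools nuclei, and the labels do not say which samples entered it. Only the replicate 2 samples of the 2 groups are described with the cluster table, and the replicate 1 samples with a proximal tubule table, so the averages may rest on a subset of the samples. No spread between replicates and no comparison of Cis9w with CT9w could therefore be obtained for these cells, and every ratio below compares pooled columns, with no test between them.

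A cluster average is the sum of a gene's UMIs over the nuclei of a cluster divided by the sum of those nuclei's size factors (their relative depths), so every column adds up to 2008. The UMIs behind each average could be recovered as whole numbers. IC-A/IC-B held 1443740 UMIs, against 1061130 in PC and 908581 in CNT, and 4.00% of the 36068714 UMIs of the 17 clusters, which ranged between 254460 and 7425098. In IC-A/IC-B 1 UMI corresponded to an average of 0.00139. Ratios between columns are given with 95% exact intervals that cover counting error only. Where the other column had 0 UMIs it was set to 3 UMIs and the ratio is written as a lower limit. Genes were compared between a pair of columns where the pair held at least 20 UMIs, and were counted as higher or lower from a 2-fold ratio on. The share of mitochondrially encoded UMIs was 0.104% in IC-A/IC-B, against 0.07% in PC and 0.111% in CNT.

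Intercalated cells are the acid-base cells of the connecting tubule and collecting duct, where they lie among principal cells. Type A cells secrete acid through a vacuolar H+-ATPase (V-ATPase) in the apical membrane and return bicarbonate to the blood through the anion exchanger AE1 (Slc4a1), while type B cells secrete bicarbonate through apical pendrin (Slc26a4) and carry AE4 (Slc4a9) on the basolateral side. The forkhead factor Foxi1 is required for both types, and Notch signalling from intercalated cells to their neighbours is known to keep principal cells in their own fate.

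The markers given for the label were read first. Since the nuclei were clustered on expression that includes these genes, their levels describe the column and are no independent check of its label. Slc26a4 had an average of 9.13 in IC-A/IC-B (95% Poisson interval 8.91 to 9.35, from 6562 UMIs), against 0.00757 in PC from 4 UMIs and 0.0133 in CNT from 6 UMIs. This was 1206 times the PC average (interval 471 to 4427) and 688 times the CNT average, and the highest of the other clusters was Podocyte with 44 UMIs. Slc4a9 averaged 6.74 in IC-A/IC-B from 4843 UMIs, against 0.0189 in PC and 0.0862 in CNT, which were 356-fold (interval 193 to 743) and 78.1-fold differences. Both type B exchangers were thus far above every other column. Atp6v1g3, the V-ATPase G subunit of intercalated cells, averaged 2.14 in IC-A/IC-B (1536 UMIs), against 0.00757 in PC and 0.0221 in CNT, and exceeded the highest other cluster 36.0-fold (interval 23 to 60). Foxi1 had 87 UMIs in IC-A/IC-B, against 1 in PC and 3 in CNT, a ratio of 63.9 over PC (interval 11.2 to 2554) and 18.3 over CNT (interval 6.04 to 90.2). Slc4a1, the type A exchanger, also had 87 UMIs in IC-A/IC-B, against 1 in PC and 4 in CNT, and lay 7.67-fold (interval 2.06 to 64.3) above the highest other cluster, mixed-2, which had 2. All 5 genes were highest in IC-A/IC-B among the 17 clusters, and Foxi1 and Slc4a1 rest on few molecules.

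The wider marker lists went the same way, with an exception in each. Of 8 type A markers, 7 were at least 2-fold higher in IC-A/IC-B than in PC, where 10.2% of all 10074 compared genes were. They included the receptor kinase Kit (330-fold, interval 91.0 to 2726), Aqp6, an anion-conducting aquaporin (15.5-fold, 7.36 to 39.3), and Dmrt2, a transcription factor of type A cells, with 137 UMIs against 3 in PC (33.6-fold, 11.2 to 165). The remaining one was Rhcg, an ammonia channel known from both cell types, with an average of 0.910 in IC-A/IC-B, against 2.00 in PC and 1.52 in CNT. Of 6 type B markers, 5 were higher, among them the insulin receptor-related receptor Insrr, an alkali sensor, with 834 UMIs against 1 in PC and 3 in CNT. The sodium-driven exchanger Slc4a8 was lower, with 22 UMIs in IC-A/IC-B, against 97 in PC and 27 in CNT (0.167 of the PC average, interval 0.0999 to 0.267). Of 11 markers of either type, 9 were higher than in PC, while Car15 was lower (0.439) and Tmem213 lay at 1.17 (interval 0.904 to 1.52). Car15 was highest in the thick ascending limb column and Tmem213 in CNT. The column joins both types, so a low total for a marker can reflect few nuclei of its type or little RNA per nucleus, and these cannot be told apart.

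**Figure D1:**
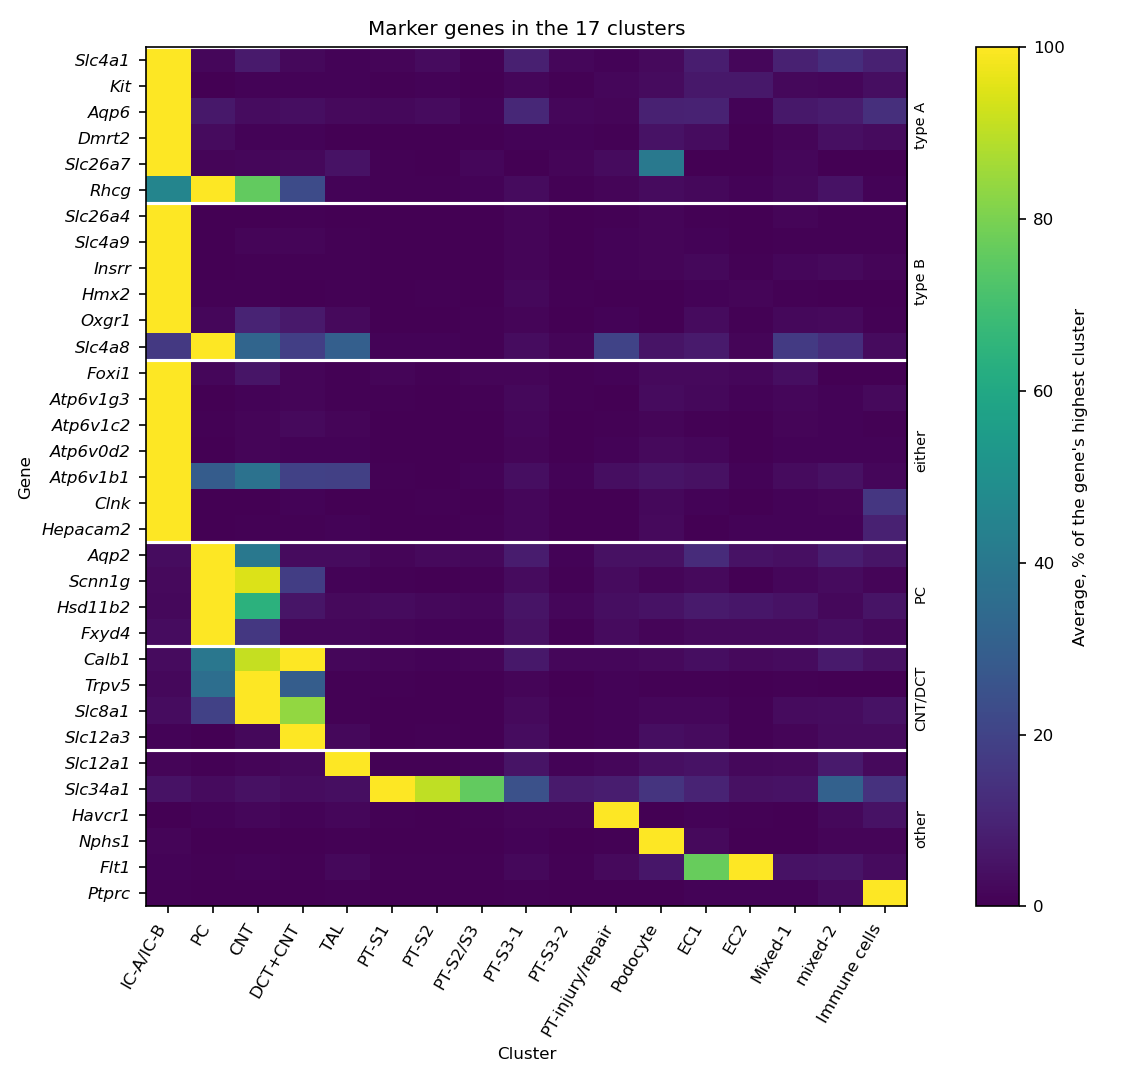
Averages of marker genes (rows, grouped by the cell type they mark) in the 17 clusters (columns, IC-A/IC-B first), each as a percentage of the gene's highest cluster. Of the type A, type B and shared markers plotted, all but Rhcg and Slc4a8, which are highest in PC, peak in IC-A/IC-B, and the markers of the other cell types peak elsewhere. Not all listed markers are plotted: Car15 and Tmem213 of the shared list are left out and peak in the thick ascending limb and CNT columns. Atp6v0d2 is drawn with the shared markers but counted as type A in the text.

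Across the whole transcriptome, 187 of the 8169 genes with at least 20 UMIs in IC-A/IC-B (2.29%) were at least 2-fold higher there than in each of the other 16 clusters. By the same count 80 of 7091 genes (1.13%) led in PC and 7 of 6475 (0.108%) in CNT, while 422 of 4187 (10.1%) led in the immune cell column. The shares in Mixed-1 (4.22%) and Podocyte (2.77%) were also above that of IC-A/IC-B. By its name the DCT+CNT column also holds connecting tubule, and its part in the low count in CNT was not tested. Of the 187 genes, 91 stood at least 4-fold, 42 at least 10-fold and 16 at least 30-fold above the next cluster. The next cluster varied: it was PT-injury/repair for 21 genes, the immune cells for 20, PC for 18 and CNT for 12. Just inside the 2-fold limit were Shroom2 (2.01) and Zfp827 (2.01), and just outside it were 4732463B04Rik and Plekhd1 (1.99).

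Among genes with at least 100 UMIs in IC-A/IC-B, the 20 with the largest ratio over every other cluster were the exchangers Slc4a9 and Slc26a4, the V-ATPase subunits Atp6v1c2, Atp6v0d2 and Atp6v1g3, the receptors Insrr and Sctr, the transcription factors Hmx2, Dmrt2 and Rorb, and 10 genes with other roles. Lsamp, a neuronal adhesion protein of the immunoglobulin family, had 10485 UMIs in IC-A/IC-B, against 6 in PC and 5 in CNT, and stood 51.4-fold (interval 43.1 to 61.7) above Mixed-1. Rorb, an orphan nuclear receptor best known from retina and cortex, averaged 0.996 in IC-A/IC-B from 716 UMIs, against 0 UMIs in PC and 3 in CNT, at least 175-fold higher than PC. Kcnq3, a subunit of the neuronal M-type potassium channel, had 377 UMIs in IC-A/IC-B, against 1 each in PC and CNT, and was 60.8-fold above the next cluster (interval 23.6 to 224). Several further genes on the list are also known from neurons or photoreceptors. Kctd16, an auxiliary subunit of GABA-B receptors, had 972 UMIs in IC-A/IC-B, against 1 each in PC and CNT. Syn2, a synaptic vesicle phosphoprotein, had 1684 UMIs in IC-A/IC-B, against 18 in PC and 1 in CNT. Rp1, a microtubule-associated protein of the photoreceptor cilium, had 932 UMIs in IC-A/IC-B, against 3 in PC and 1 in CNT. The list also held the mitochondrial folate enzyme Aldh1l2, plasma prekallikrein (Klkb1), the growth factor Bmp8a and the lincRNA genes Gm47795 and Gm12121. Gm12121 had 784 UMIs in IC-A/IC-B, against 3 in PC and 1 in CNT. In the GRCm38 annotation (GENCODE M21) it ends 60917 bases from the Foxi1 gene on chromosome 11, with no other gene of the table lying wholly between them. The last of the 20 was Dmrt2 with 20.4-fold, and the gene after it, Ociad2, had 19-fold.

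Some of these genes overlap another gene on the opposite strand, and no label or header says whether the counting used strand, so their counts are less certain. Hmx2, a homeobox factor with 264 UMIs in IC-A/IC-B against 1 each in PC and CNT, overlaps Fgfr2, which had 1214 UMIs in IC-A/IC-B. Insrr overlaps Pear1 (243 UMIs), Syn2 overlaps Timp4 (76), Aldh1l2 overlaps D10Wsu102e (85) and Atp6v1c2 overlaps Pdia6 (65).

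**Figure D2:**
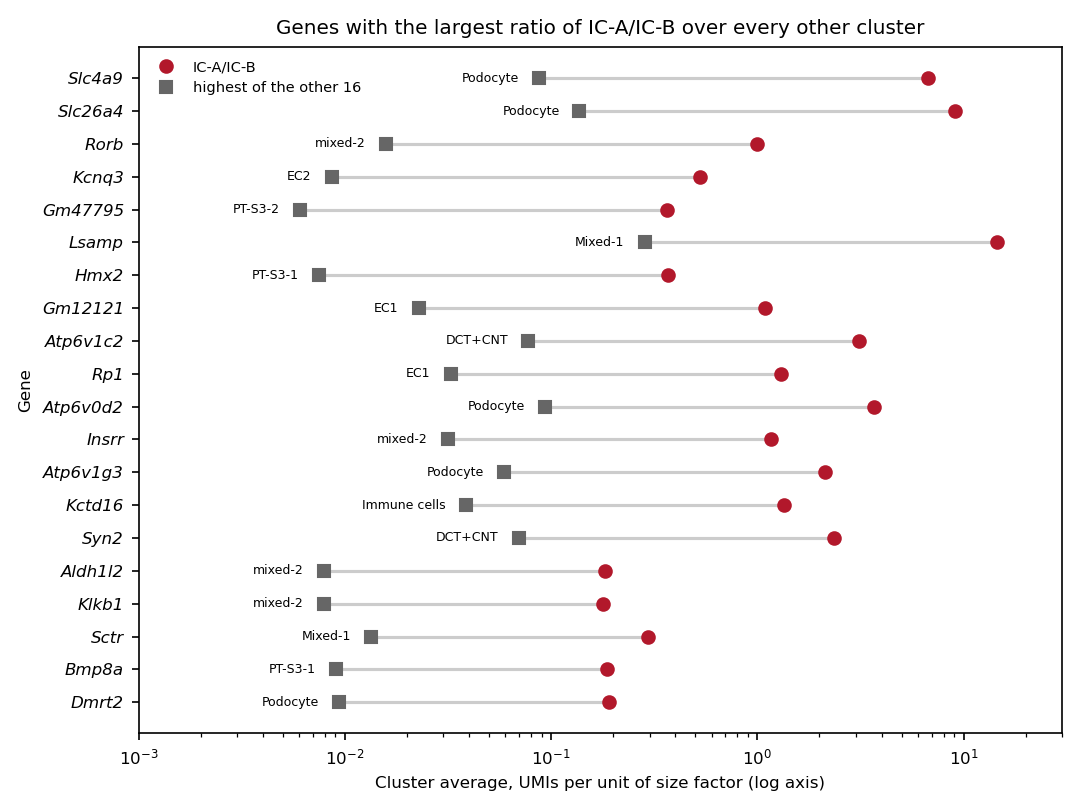
Averages of the 20 genes with the largest ratio of IC-A/IC-B over every other cluster, in IC-A/IC-B (circles) and in the highest of the other 16 clusters (squares, with its name), on a log axis of UMIs per unit of size factor. The gap runs between 77.1-fold for Slc4a9 and 20.4-fold for Dmrt2, and the highest other cluster is PC for none of them.

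Against PC, 1032 genes were at least 2-fold higher in IC-A/IC-B and 1097 (10.9%) at least 2-fold lower. Against CNT, 1011 of 9774 genes (10.3%) were higher and 795 (8.13%) lower. Of the 9584 genes that could be compared with both, 663 (6.92%) were higher than in both and 517 (5.39%) lower than in both. The median gene differed little, with a ratio of 1.01 to PC and 1.02 to CNT. Over genes within this pooled table, the log2 averages of IC-A/IC-B had a Pearson correlation of 0.718 with PC and 0.762 with CNT, and the highest value, 0.776, was with DCT+CNT, while the immune cells had 0.450. Genes are not independent replicates, and the columns differ in depth, so these correlations are descriptive.

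The genes furthest above PC, beside those already named, were Tmem163, a zinc transporter, with 1596 UMIs in IC-A/IC-B against 2 in PC, Ripor2, a RhoA inhibitor, with 738 against 1, and Rtl4, a retrotransposon-derived gene, with 1975 against 3. None of these 3 was among the leading 20: Ripor2 was only 1.26-fold above the immune cells, Rtl4 4.06-fold above TAL (thick ascending limb) and Tmem163, which overlaps Mgat5, 6.93-fold above the immune cells. Clnk, an immune cell adaptor that is also known from intercalated cells, had 920 UMIs in IC-A/IC-B, against 0 in PC and 2 in CNT. It was at least 225-fold higher than in PC and 6.26-fold above the immune cells.

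The genes furthest below PC included a set that was nearly silent in IC-A/IC-B. Col26a1, a collagen, had 2 UMIs in IC-A/IC-B, against 826 in PC and 146 in CNT. Spock3, a testican proteoglycan, had 0 UMIs in IC-A/IC-B, against 433 in PC and 49 in CNT. The voltage-gated potassium channel Kcnh5 had 2 UMIs in IC-A/IC-B, against 625 in PC, and Apela, a ligand of the apelin receptor, had 1 against 254. Pak3, Il1rapl1, Dab1 and Kcne1 had between 1 and 3 UMIs in IC-A/IC-B, against 110 to 311 in PC. Gpc5, a glypican, had 23 UMIs in IC-A/IC-B, against 880 in PC and 614 in CNT, and the channel Kcnc2 had 25 in IC-A/IC-B, against 907 in PC and 237 in CNT. Below CNT, the lowest were Col26a1 and Egfem1 (0.0164 of the CNT average), the apical calcium channel Trpv5 (0.0206, interval 0.00932 to 0.0397), Gpc5, Scnn1g, the calcium buffer Calb1 (0.0328), the sodium-calcium exchanger Slc8a1 (0.0331), Hsd11b2, the urate transporter Slc2a9 (0.0376) and the protease Adamts16 (0.0390).

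**Figure D3:**
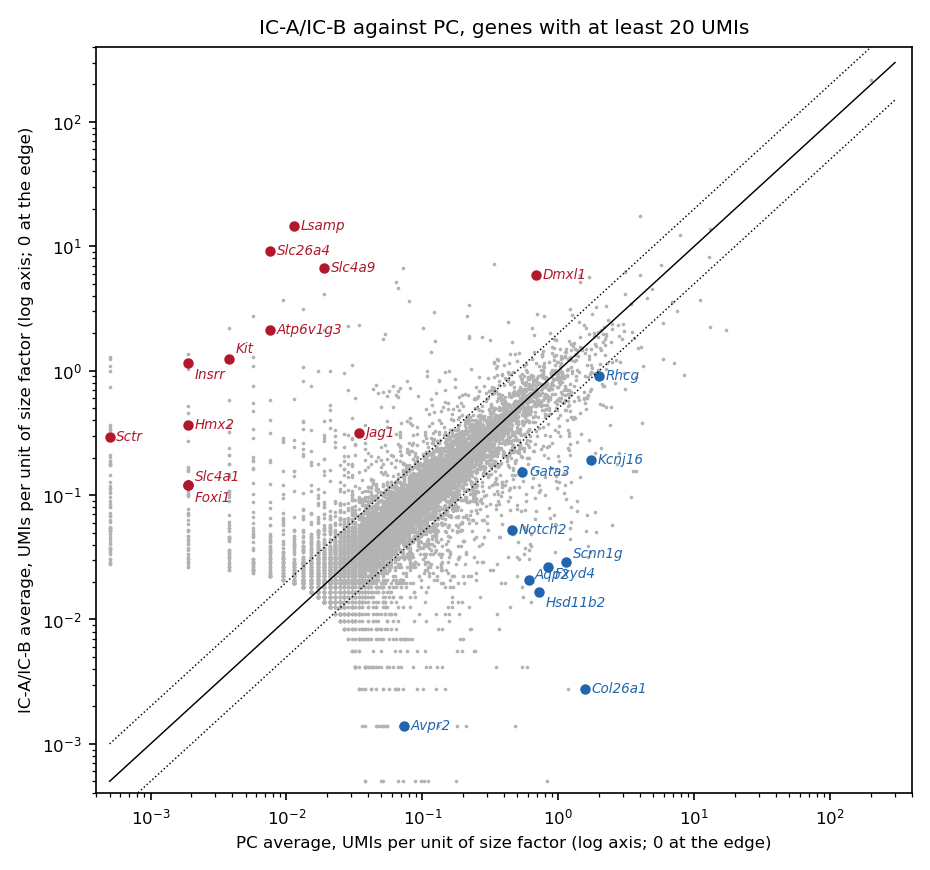
Averages in IC-A/IC-B (vertical) against PC (horizontal) for the 10074 genes with at least 20 UMIs in the pair, on log axes of UMIs per unit of size factor, with genes at 0 drawn at the edge. Red and blue mark named genes higher and lower in IC-A/IC-B, the solid line marks equality and the dotted lines 2-fold. Lsamp, Slc26a4 and Slc4a9 lie far above the line and Col26a1, Hsd11b2 and Aqp2 far below it.

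The V-ATPase consists of a cytosolic V1 sector that hydrolyses ATP and a membrane V0 sector that carries protons, and several subunits have paralogs with restricted expression. Of the 12 V1 genes analysed, 7 were at least 2-fold higher in IC-A/IC-B than in PC and 1 was lower, with a median log2 ratio of 1.63, against 0.01 over all genes. Of 9 V0 genes that could be compared with PC, 4 were higher and none lower, with a median of 0.69. The shares over all compared genes were 10.2% higher and 10.9% lower. Over CNT the median log2 ratios were 1.14 for V1 and 0.60 for V0. The ratio differed widely between paralogs of the same subunit. For subunit C, Atp6v1c2 averaged 3.13 in IC-A/IC-B, against 0.0132 in PC and 0.0376 in CNT (236-fold over PC, interval 114 to 588), whereas Atp6v1c1 averaged 0.113 in IC-A/IC-B, against 0.115 in PC and 0.0906 in CNT (0.976, interval 0.691 to 1.38). For subunit d, Atp6v0d2 averaged 3.68 in IC-A/IC-B, against 0.00946 in PC and 0.0508 in CNT (389-fold over PC, interval 166 to 1198), whereas Atp6v0d1 averaged 0.206 in IC-A/IC-B, against 0.193 in PC and 0.192 in CNT (1.07, interval 0.823 to 1.39). For subunit G, Atp6v1g3 was 282-fold above PC (interval 110.0 to 1037), whereas Atp6v1g1 was at 0.845 (interval 0.444 to 1.62) and Atp6v1g2, the neuronal form, at 0.206 from 7 UMIs against 25. For each of these 3 subunits the paralog known from intercalated cells had a ratio over PC of at least 236, while the interval of the widely expressed one included 1.

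The paralogs whose loss causes distal renal tubular acidosis in humans, Atp6v1b1 and Atp6v0a4, differed less. Atp6v1b1 averaged 0.892 in IC-A/IC-B, against 0.259 in PC and 0.336 in CNT (3.44-fold over PC, interval 2.86 to 4.17), and Atp6v1b2 0.204 against 0.149 in PC and 0.144 in CNT (1.37, interval 1.03 to 1.82). Atp6v0a4 averaged 2.80 in IC-A/IC-B, against 1.25 in PC and 1.64 in CNT (2.24-fold over PC, interval 2.05 to 2.45), and Atp6v0a1 0.186 against 0.170 in PC (1.09). Of 10 further subunit genes, 6 were at least 2-fold higher than in PC, with Atp6v1d at 4.80, Atp6v1e1 at 3.58, Atp6v1a at 3.51, Atp6v0b at 3.45, Atp6v1h at 2.80 and Atp6v0c at 2.51, while Atp6v0e and Atp6v1f both lay at 1.61, Tcirg1 at 1.36 and Atp6v0a2 at 1.07. Of 11 comparable accessory and assembly genes, 7 were higher than in PC and 1, Rogdi, lower (0.496), beside all-gene shares of 10.2% and 10.9%. Dmxl1, a subunit of the RAVE-like complex that joins V1 to V0, averaged 5.88 in IC-A/IC-B, against 0.687 in PC and 0.592 in CNT (8.56-fold over PC, interval 7.69 to 9.56), and was 4.97-fold above its next cluster. Of the TLDc-domain proteins that bind the pump, Ncoa7 (15.3-fold, interval 12.7 to 18.6), Tbc1d24 (15.3-fold, 8.15 to 32.4) and Oxr1 (5.61-fold, 4.77 to 6.64) were above PC. Ncoa7 was 1.86-fold above PT-S1, whereas Oxr1 was lower in IC-A/IC-B than in the proximal tubule and endothelial columns, with PT-S3-2 highest. The accessory subunits Atp6ap1 and Atp6ap2 were 4.23-fold and 3.67-fold above PC.

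**Figure D4:**
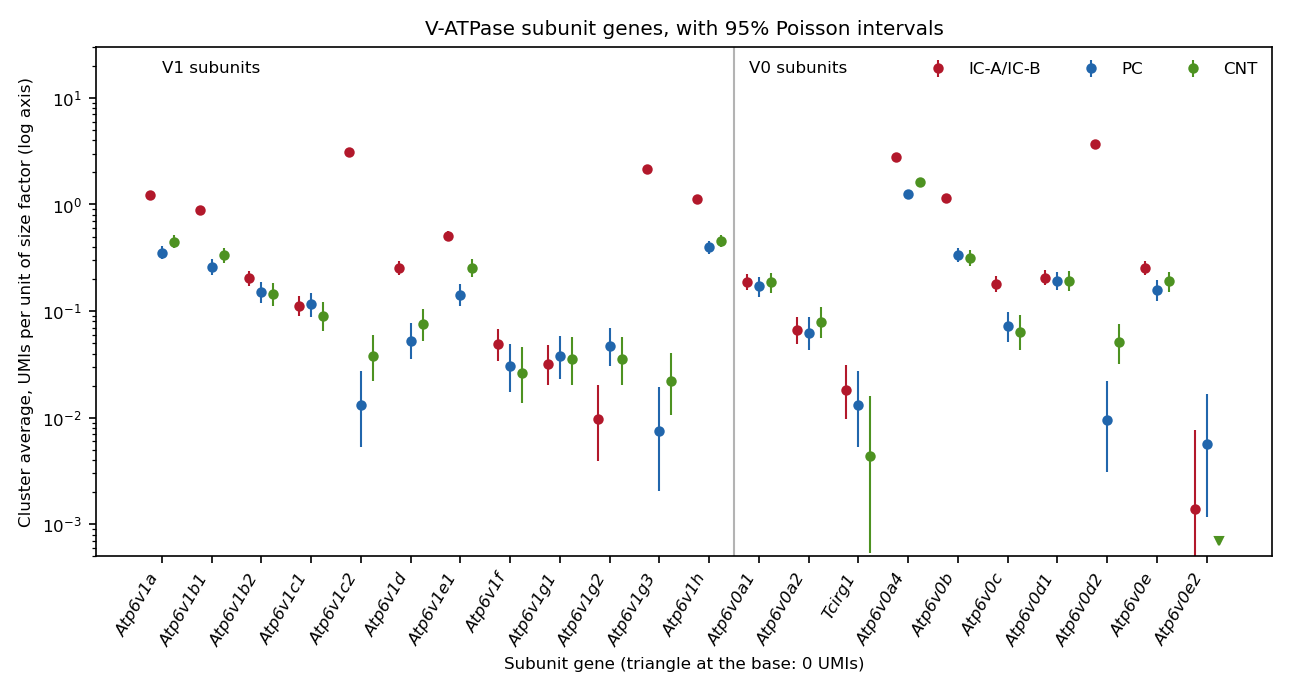
Averages of V1 and V0 subunit genes in IC-A/IC-B (red, left), PC (blue) and CNT (green, right), in UMIs per unit of size factor on a log axis, with 95% Poisson intervals and triangles at the base for 0 UMIs. Atp6v1c2, Atp6v1g3 and Atp6v0d2 stand far above PC and CNT in IC-A/IC-B, while Atp6v1c1, Atp6v1g1 and Atp6v0d1 have overlapping intervals in the 3 clusters.

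Promoters of a pump gene with a modest ratio to PC (Atp6v1b1) and of a pump gene and an exchanger with large ones (Atp6v1g3 and Slc26a4) are shown, to set the letters beside the range of ratios. Sequences are from RefSeq (GRCm38.p6), 250 bases before to 50 bases after the start site, 5′ to 3′ on the gene's strand. The letters TGTTTAC, a core sequence bound by forkhead factors, were searched on both strands and are in capitals where found. Atp6v1b1 lies at chr6:83742767-83743066 on the plus strand, Atp6v1g3 at chr1:138273488-138273787 on the plus strand and Slc26a4 at chr12:31559935-31560234 on the minus strand.
Atp6v1b1: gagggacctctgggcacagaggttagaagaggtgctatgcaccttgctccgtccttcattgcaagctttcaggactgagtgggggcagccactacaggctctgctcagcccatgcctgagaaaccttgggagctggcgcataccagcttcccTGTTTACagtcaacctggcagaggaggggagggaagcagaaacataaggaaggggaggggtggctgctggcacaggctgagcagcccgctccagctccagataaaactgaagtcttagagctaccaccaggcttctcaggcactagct
Atp6v1g3: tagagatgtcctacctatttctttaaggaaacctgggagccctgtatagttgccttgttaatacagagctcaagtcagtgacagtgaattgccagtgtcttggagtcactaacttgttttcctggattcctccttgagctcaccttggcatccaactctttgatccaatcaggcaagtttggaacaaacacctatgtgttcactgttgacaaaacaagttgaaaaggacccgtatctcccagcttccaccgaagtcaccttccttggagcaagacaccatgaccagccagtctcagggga
Slc26a4: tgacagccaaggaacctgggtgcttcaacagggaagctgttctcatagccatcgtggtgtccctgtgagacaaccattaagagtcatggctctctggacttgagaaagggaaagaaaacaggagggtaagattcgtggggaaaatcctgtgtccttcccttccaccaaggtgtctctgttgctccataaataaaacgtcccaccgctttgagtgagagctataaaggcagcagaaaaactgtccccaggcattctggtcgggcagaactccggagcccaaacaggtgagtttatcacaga

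Atp6v1b1 held the letters once, with their first base 98 bases before the start site, and neither Atp6v1g3 nor Slc26a4 held them. Of the 187 genes leading in IC-A/IC-B, 140 had a promoter in the sequence table, and 5 of these (3.57%) held the letters, namely Atp6v1b1, Ppfibp2, Klkb1, Lsm6 and Cpsf4l. Over all 27025 genes of that table the share was 4.05%. Of 17 V-ATPase subunit genes with a promoter, 1 held them. A match is a description of the letters in this window only.

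Transporters that work with the pump differed from PC in both directions. Of 8 comparable SLC4 genes, 1 (Slc4a8) was lower than in PC and 3 were higher: Slc4a9, Slc4a1 and Slc4a7. Over all compared genes 10.2% were higher than in PC and 10.9% lower. Slc4a7, an electroneutral sodium bicarbonate cotransporter, was 3.23-fold above PC from 22 UMIs against 5 (interval 1.19 to 10.9). Its average was lower than in every other cluster except DCT+CNT, CNT and PC, and the immune cells had the highest. The housekeeping exchanger Slc4a2 lay at 1.61 (interval 1.00 to 2.63). Of the SLC26 family, Slc26a7, a chloride-bicarbonate exchanger of type A cells in the medulla, had 94 UMIs in IC-A/IC-B, against 1 each in PC and CNT (69.1-fold over PC, interval 12.1 to 2758), and was 2.46-fold above Podocyte. Slc26a11, also known from intercalated cells, had 22 UMIs in IC-A/IC-B, against 8 in PC and 14 in CNT (2.02-fold over PC, interval 0.867 to 5.25).

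Among the carbonic anhydrases, which supply protons and bicarbonate, 2 of 5 comparable genes were higher than in PC and 2 lower. Over all compared genes these shares were 10.2% and 10.9%. The membrane-bound Car12 averaged 3.66 in IC-A/IC-B, against 0.0795 in PC and 0.305 in CNT (46.1-fold over PC, interval 34.0 to 64.1), and the cytosolic Car2 averaged 0.939 in IC-A/IC-B, against 0.431 in PC and 0.106 in CNT (2.18-fold over PC, interval 1.87 to 2.54, and 8.85-fold over CNT). The mitochondrial Car5b and the membrane-anchored Car15 were lower than in PC (0.4 and 0.439). Among Rh proteins, which carry ammonia, Rhag, the erythroid member, had 27 UMIs in IC-A/IC-B, against 1 in PC and 0 in CNT, and Rhbg lay at 1.60 of the PC average (interval 1.19 to 2.15). The H+/K+-ATPase subunit Atp4a had 28 UMIs in IC-A/IC-B, against 96 in PC and 67 in CNT (0.214 of the PC average, interval 0.135 to 0.330), and Atp12a, the non-gastric form, had 0 UMIs in IC-A/IC-B, against 2 in PC and 5 in CNT. Of the Na+/K+-ATPase, the β subunit Atp1b1 lay at 0.524 of PC and the regulator Fxyd4 at 0.0317 (interval 0.0189 to 0.0500). No P-type ATPase gene of 8 compared was at least 2-fold higher than in PC, and 3 were lower (all genes: 10.2% and 10.9%).

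Among 16 comparable chloride and potassium channel genes, 5 were higher than in PC and 3 lower, beside all-gene shares of 10.2% and 10.9%. The higher ones included Aqp6, Bsnd (barttin, an accessory subunit of chloride channels, 9.55-fold, interval 4.20 to 26.8) and the endosomal exchanger Clcn5 (4.24-fold, 3.39 to 5.35). Over CNT, Aqp6 and Clcn5 (6.68-fold) were higher, whereas Bsnd lay at 1.69. The lower ones were all inward rectifiers. Kcnj1 (ROMK, the secretory potassium channel) had 23 UMIs in IC-A/IC-B, against 263 in PC and 344 in CNT (0.0643 of PC). Kcnj10 had 11 UMIs in IC-A/IC-B, against 140 in PC and 127 in CNT (0.0577 of PC), and its partner Kcnj16 had 137 in IC-A/IC-B, against 924 in PC and 1043 in CNT (0.109). Of the epithelial sodium channel, Scnn1g averaged 0.0292 in IC-A/IC-B, against 1.14 in PC and 1.08 in CNT (0.0256 of PC, interval 0.0157 to 0.0395), and Scnn1b averaged 0.239 against 2.05 in PC and 1.68 in CNT (0.117, interval 0.0990 to 0.137). The α subunit Scnn1a differed less, at 0.673 of PC (interval 0.555 to 0.816). Nedd4l, the ubiquitin ligase that removes the channel, was at 1.48 of PC and 2.18 of CNT. Of 16 sodium transport and WNK genes, 1 was higher and 5 lower than in PC, and 1 was higher and 9 lower than in CNT. Over all genes compared with CNT, 10.3% were higher and 8.13% lower.

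Of 26 comparable distal nephron transcription factors, 7 were higher and 11 lower than in PC. Over all compared genes 10.2% were higher and 10.9% lower. The higher ones were Foxi1, Hmx2, Dmrt2, Foxp1, Esrrb, Hnf4a and the glucocorticoid receptor Nr3c1. The last 3 are not particular to IC-A/IC-B. Esrrb was far lower there than in TAL and DCT+CNT, and Hnf4a than in PT-S2. Nr3c1 was lower than in most other clusters, with Mixed-1 highest. Foxp1, a forkhead repressor, averaged 5.13 in IC-A/IC-B, against 1.45 in PC and 1.5 in CNT (3.54-fold over PC, interval 3.27 to 3.83). Nr3c1 had 221 UMIs in IC-A/IC-B, against 34 in PC and 52 in CNT (4.78-fold over PC, interval 3.32 to 7.07), while the mineralocorticoid receptor Nr3c2 lay at 0.521 of PC (interval 0.495 to 0.548). The enzyme that protects that receptor from glucocorticoids, Hsd11b2, had 12 UMIs in IC-A/IC-B, against 380 in PC and 209 in CNT (0.0232 of PC, interval 0.0119 to 0.0410). Lower factors included Elf5, which marks principal cells (1 UMI against 25 in PC), Emx1 (0.114), Tfap2b (0.135), Ehf (0.235), Sim1 (0.248), Gata2 (0.253) and Gata3 (0.283). Tfcp2l1, a factor of both cell types, averaged 4.15 in IC-A/IC-B, against 3.09 in PC and 2.62 in CNT (1.34-fold over PC). In the Notch pathway, the ligand Jag1 averaged 0.317 in IC-A/IC-B from 228 UMIs, against 0.0341 in PC from 18 and 0.0221 in CNT from 10 (9.31-fold over PC, interval 5.76 to 16). The ligand Dll1 had 44 UMIs in IC-A/IC-B, against 0 in PC and 4 in CNT, at least 10.8-fold higher than PC. The receptor Notch2 had 38 UMIs in IC-A/IC-B, against 241 in PC and 131 in CNT (0.116 of PC, interval 0.0801 to 0.164), and the target gene Hes1 74 UMIs against 128 in PC and 81 in CNT (0.425, interval 0.315 to 0.570). The receptor Notch1 was higher, with 38 UMIs in IC-A/IC-B against 12 in PC (2.33-fold, interval 1.19 to 4.89). Its average was highest in EC1, an endothelial column. Over the 13 comparable Notch genes, 3 were higher and 4 lower than in PC, beside all-gene shares of 10.2% and 10.9%. Their median log2 ratio was -0.22.

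Hormone receptors and sensors lay on both sides. Of 23 compared with PC, 11 were higher and 7 lower (all genes: 10.2% and 10.9%). Of 21 compared with CNT, 9 were higher and 6 lower (all genes: 10.3% and 8.13%). The secretin receptor Sctr had 211 UMIs in IC-A/IC-B and 0 in both PC and CNT, at least 51.7-fold and 44.3-fold higher. The calcitonin receptor Calcr had 212 UMIs in IC-A/IC-B, against 0 in PC and 2 in CNT, at least 51.9-fold higher than PC, and was 7.79-fold above PT-injury/repair. The 2-oxoglutarate receptor Oxgr1 had 721 UMIs in IC-A/IC-B, against 9 in PC and 46 in CNT (58.9-fold over PC, interval 30.8 to 129). Adgrf5, an adhesion receptor of type A cells and endothelium, averaged 2.11 in IC-A/IC-B, against 0.0189 in PC and 0.0464 in CNT (111-fold over PC, interval 60.4 to 233), and was 1.19-fold above EC2, an endothelial column. The prostaglandin receptor Ptger3 was 29.9-fold above PC (interval 14.3 to 75.1) but at 0.214 of TAL. P2ry14, a UDP-glucose receptor that recruits neutrophils in inflamed collecting ducts, was 7.30-fold above PC (interval 4.29 to 13.4), and the vasopressin receptor Avpr1a had 20 UMIs in IC-A/IC-B and 0 in PC and CNT. The lower receptors included the principal cell vasopressin receptor Avpr2 (1 UMI in IC-A/IC-B, against 39 in PC and 12 in CNT), Ptger1 (5 against 100 in PC and 17 in CNT), Ednrb (5 against 37 and 44) and Egfr (0.291 of PC).

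Genes of energy metabolism differed little in nuclear RNA. Over all genes compared with PC, 10.2% were higher and 10.9% lower. Over all genes compared with CNT, 10.3% were higher and 8.13% lower. Of 49 nuclear-encoded respiratory chain genes, 3 were at least 2-fold higher than in PC (Ndufs8, Ndufv1 and Sdhd) and none lower, with a median log2 ratio of 0.22, and over CNT 1 was higher with a median of 0.08. None of 17 tricarboxylic acid cycle genes passed 2-fold in either direction over PC or CNT, with medians of 0.24 and 0.16. Of 15 comparable glycolysis genes, none was higher than in PC and 1, the glucose transporter Slc2a1, was lower (0.311, interval 0.213 to 0.446). The coactivator Ppargc1b averaged 0.534 in IC-A/IC-B, against 0.117 in PC and 0.236 in CNT (4.55-fold over PC, interval 3.47 to 6.05), while Ppargc1a lay at 1.28. Both coactivators were highest in TAL. Of 13 comparable genes that handle platinum, 1 was higher than in PC (Gclc, the glutathione synthesis enzyme, 2.16-fold) and 2 lower, the copper transporters Slc31a1 (0.434) and Atp7a (0.390), which are also reported to carry cisplatin. Gclc was highest in PT-S3-2, and over CNT no gene of this list was 2-fold higher and 1 was lower. Of 10 comparable p53 targets, 1 was higher and 1 lower than in PC. Over PC both lists lie near the shares over all genes, 10.2% higher and 10.9% lower. Havcr1 (KIM-1, a marker of the injured proximal tubule) had 0 UMIs in IC-A/IC-B, and Lcn2 (NGAL, an injury marker and antibacterial protein reported from intercalated cells) had 1 UMI, against 5 in PC and 2 in CNT, all too few for a ratio. Since treated and untreated nuclei are not separated, these levels say nothing about cisplatin.

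**Figure D5:**
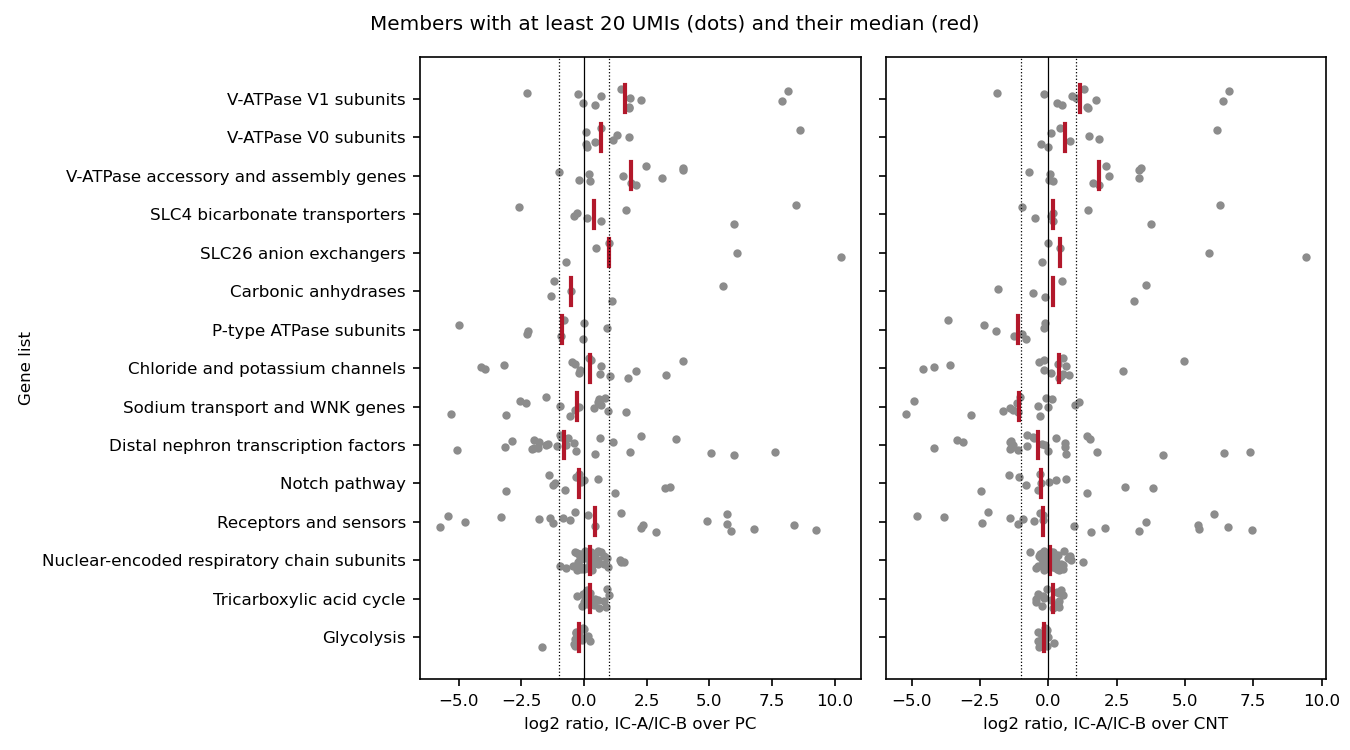
Log2 ratios of IC-A/IC-B over PC (left) and over CNT (right) for the members of 15 gene lists with at least 20 UMIs in the pair (dots), with each list's median (red bar), equality (solid line) and 2-fold (dotted lines). V-ATPase lists have medians of 1.63, 0.69 and 1.88 over PC, the respiratory chain, tricarboxylic acid cycle and glycolysis lists stay near 0, and the receptor and transcription factor lists spread widely on both sides.

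Marker RNA of other cell types was present at low levels. The summed averages of 16 proximal tubule markers in IC-A/IC-B were 7.34% of those in PT-S1, against 6.78% in PC and 6.82% in CNT, and Slc34a1 had 433 UMIs in IC-A/IC-B. The sums of the thick ascending limb, distal convoluted tubule, endothelial, immune and podocyte lists were 1.80%, 2.45%, 1.08%, 1.30% and 0.906% of those in their own clusters, and that of the principal cell list was 8.20% of PC. The largest members of the principal cell list in IC-A/IC-B were Scnn1b with 172 UMIs and Gata3 with 111. Whether these nuclei made such RNA themselves was not tested. Col1a1, Lum and Postn of the 8 fibroblast markers, Adgre1, Cd3e, Cd3g, Itgam and Lyz2 of the 13 immune markers, and Aqp4 of the 11 principal cell markers were at 0 UMIs in IC-A/IC-B. The part of RNA from other cells in the ratios above was not tested. It concerns most the genes that are far higher elsewhere, such as Slc12a3, 3.21-fold above PC in IC-A/IC-B but at 0.0106 of DCT+CNT, and Hnf4a, 2.25-fold above PC but at 0.0469 of PT-S2.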

How the data were processed

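Nuclei were profiled on 10x 3′ v3.1 droplets. Per the submitters' processing notes, Cell Ranger 5.0.1 and the build mm10 were used. Clustering, filters, numbers of nuclei and size factors were not given in sources used here, nor was the treatment of doublets, which pooled columns do not allow to be checked. The values are the authors' size-factor-normalised cluster averages, deposited with 1 column for each of 17 clusters and none per sample, per the file headers. Their low values are whole multiples of 1 step, and 100% of values were within 0.1 of a whole UMI. No count test was run, since each cluster is a single pooled column and the nuclei were clustered on these same genes. The deposited fold changes, p-values and a proximal tubule table were not used.

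From the recovered UMIs, ratios with exact binomial (Clopper-Pearson) intervals and levels with exact Poisson intervals were computed at 95% confidence in Python 3.11.15 with pandas 2.3.3 and scipy 1.17.1, checked on simulated data. Of 24468 genes, the 16 with a repeated symbol were left out, leaving 24452, and 24449 identifiers matched GENCODE M21. Named genes were the 5 markers, acid-base genes with at least 20 UMIs in IC-A/IC-B and PC together, the 20 with the largest ratio over every other cluster (at least 100 UMIs), the 10 highest and 10 lowest over PC and CNT (at least 100 UMIs in the pair), up to 4 members of each other list with the largest ratio over PC, and markers of other cell types. Further list members named beside them were chosen after their values were seen. The cluster, the lists and the rules were chosen with earlier results of these data known. Alternatives were UMI floors of 10 and 50, a 4-fold threshold, rescaling to a median ratio of 1, 1 UMI added to each sum, a rank correlation, and a correlation without the 100 highest genes. A few genes of these lists are not reported here.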

Additional observations from a re-analysis of the deposited data

How the results depend on the processing

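No paired analysis was possible because the columns carry no sample name, and for the same reason no replicate could be left out. With a floor of 50 UMIs in place of 20, the genes at least 2-fold higher than PC numbered 636 and those lower 689, and against CNT 597 were higher and 478 lower. At a 4-fold threshold, 447 were higher and 414 lower than PC, 425 higher and 255 lower than CNT, and 91 higher than every other cluster. The correlation with PC was 0.773 as a Spearman rho, 0.601 at a floor of 50 UMIs and 0.711 without the 100 highest genes, and that with CNT was 0.805, 0.666 and 0.755 under the same changes. The order of CNT above PC held in all of these. A floor of 10 UMIs, rescaling and an added UMI kept each count within 1.5 times. Of 213 list medians recomputed, 47 moved by at least 0.1 on the log2 scale, and 7 changed sign, all at a floor of 50 UMIs, which leaves fewer genes. The podocyte markers over PC had a median of 1.33 and, at that floor, of -1.57, the immune markers 0.79 and -1.22, and the Rh and ammonium genes 0.67 and -0.23. Over CNT the receptors had -0.18 and 0.93, and the immune markers 0.29 and -0.42. The endothelial markers (0.03 and -0.01) and the Rh and ammonium genes (0.21 and -0.01) over CNT crossed 0 near it. Intervals cover counting error only, and variation between animals is unknown.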
